A study of Homo sapiens with 4 samples.

Results

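The genes described here are 39 genes of the endoplasmic reticulum (ER): its chaperones, its disulfide enzymes, its translocation and degradation machinery, and the sensors and transcription factors of its stress response. They were taken from a list of names, and all 39 were found among the 33538 gene rows that hold mRNA counts in single MM134 cells. Those rows are called the all-gene rows below. HSP90B1, CALR and DDIT3 also have a row among the 1253 rows of a targeted capture panel (panel rows), so 3 members were read in both ways in the same cells. The list holds 17 folding genes (10 chaperones and cochaperones, 7 disulfide enzymes), 6 genes of ER-associated degradation, 8 of translocation and glycosylation, 6 sensors and transcription factors, and 2 stress-induced secreted or luminal proteins.

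MM134 (MDA MB 134VI) is an established line of invasive lobular breast carcinoma, labelled wild type, that grows in response to estrogen. All cells were first deprived of hormone in charcoal-stripped serum. The cells then received vehicle (0.01% ethanol) or 100 nM estradiol for 24 h, and the question here is how the transcripts of the ER machinery differed between the treatments. There was 1 mRNA library per treatment, from 1 cell line, so no test between the treatments was possible and no p-value is given.

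Proteins bound for the cell surface or for secretion enter the ER through the SEC61 channel, are folded by chaperones of the HSP70 and HSP90 families and by the lectin chaperones, and have their disulfide bonds set by protein disulfide isomerases. Chains that fail to fold are pulled back to the cytosol and destroyed, which is called ER-associated degradation. Unfolded protein is sensed by IRE1 (gene ERN1), PERK (gene EIF2AK3) and ATF6, which act through the transcription factors XBP1, ATF4 and cleaved ATF6, and under lasting stress PERK signalling induces CHOP (gene DDIT3), which promotes cell death. In breast cancer cells estrogen receptor signalling has been described to set off a mild form of this response ahead of growth, and XBP1 is known as an estrogen-responsive gene of luminal cells.

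The vehicle library held 4940 cells with 6918198 UMIs (unique molecular identifiers, each standing for 1 captured transcript) in the all-gene rows, and the estradiol library held 3367 cells with 5937422. A cell had a median of 1199 UMIs with vehicle and 1561 with estradiol, and the median mitochondrial share was 7.66% and 7.62%. By the authors' phase calls, 50.5% of vehicle cells were in G1, 15.6% in S and 33.9% in G2M, against 34.5%, 29.0% and 36.4% of estradiol cells. All 7 luminal markers (ESR1, GATA3, FOXA1, KRT8, KRT18, KRT19, EPCAM) had at least 50 UMIs. All 5 basal markers were at 0. The 4 immune markers held 1 UMI in all and the 3 endothelial markers held 1. Of the plasma cell markers, a check because plasma cells are rich in ER transcripts, JCHAIN and IGKC were at 0, while MZB1 stood at 5.20 and 5.39 counts per 1000000 (CPM) and SDC1 at 44.8 and 44.6. Of the mesenchymal markers COL1A2 was at 0, and the other 4 had at least 50 UMIs each. VIM read 158 CPM with vehicle and 119 with estradiol, FN1 34.3 and 31.2, TWIST1 29.5 and 19.4, and COL1A1 26.0 and 21.1. The mesenchymal list summed to 248 CPM with vehicle and 191 with estradiol. The libraries shared 4 cell barcodes.

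ER stress elements are short promoter sequences known to bind cleaved ATF6 and XBP1 together with the CCAAT-binding factor NF-Y. They were looked for in RefSeq promoter windows (GRCh38.p14, 250 bases before to 50 after each start site, 300 in all). A window was found for 37 of the 39 members, all but PDIA3 and DERL1. The ER stress element (CCAAT, then 9 bases of any kind, then CCACG, read on both strands) was in the window of 7 members (18.9%: HSPA5, HSP90B1, CANX, CALR, PDIA6, XBP1, CRELD2) and of 25 of all 27305 genes with a window (0.0916%). The ER stress element II (ATTGG, then 1 base of any kind, then CCACG) was in 3 members (8.11%: HYOU1, SDF2L1, HERPUD1) and in 19 of all genes (0.0696%). The stretches below are shown because they belong to the chaperone genes furthest apart between the libraries, to XBP1, which encodes a factor that binds such elements, and to HERPUD1, a degradation gene that carries an element and stood lower with estradiol. Each runs 5′ to 3′ on the strand of its gene, and capitals mark the fixed letters of the matches.
HSPA5: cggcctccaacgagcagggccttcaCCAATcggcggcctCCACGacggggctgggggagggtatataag
HSP90B1: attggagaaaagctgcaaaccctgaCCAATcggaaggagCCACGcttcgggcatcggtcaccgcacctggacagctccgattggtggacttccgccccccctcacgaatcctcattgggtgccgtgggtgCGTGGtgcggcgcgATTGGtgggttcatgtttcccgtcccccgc
CALR: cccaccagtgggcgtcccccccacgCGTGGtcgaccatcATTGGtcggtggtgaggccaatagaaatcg
XBP1: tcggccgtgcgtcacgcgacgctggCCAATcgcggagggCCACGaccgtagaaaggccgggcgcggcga
HYOU1: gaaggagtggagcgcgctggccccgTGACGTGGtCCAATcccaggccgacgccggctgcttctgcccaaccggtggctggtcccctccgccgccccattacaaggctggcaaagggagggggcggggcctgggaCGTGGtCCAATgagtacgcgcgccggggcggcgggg
SDF2L1: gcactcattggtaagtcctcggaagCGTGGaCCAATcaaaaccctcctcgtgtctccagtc
HERPUD1: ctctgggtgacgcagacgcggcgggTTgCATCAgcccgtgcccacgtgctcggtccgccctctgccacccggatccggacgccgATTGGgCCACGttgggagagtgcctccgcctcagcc

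The stretches run from 25 bases before the first match to 25 after the last. The HSPA5 stretch is chr9:125241366-125241434 on the minus strand (-91 to -23 of the start site). The HSP90B1 stretch, with an element on each strand, is chr12:103930191-103930364 on the plus strand (-219 to -46). For CALR it is chr19:12938359-12938427 (plus strand, -250 to -182), with the element on the opposite strand to the gene. For XBP1 it is chr22:28800578-28800646 (minus strand, -77 to -9). The HYOU1 stretch, chr11:119057249-119057418 (minus strand, -213 to -44), holds 2 elements II, both on the opposite strand to the gene, and the upstream copy overlaps TGACGTGG. That sequence is the core of the unfolded protein response element bound by XBP1 and ATF6. It was found in 4 members (10.8%: HYOU1, TXNDC5, SSR3, SSR4) and in 253 of all genes (0.927%). The SDF2L1 stretch is chr22:21642089-21642149 (plus strand, -213 to -153), with its element II on the opposite strand. For HERPUD1 it is chr16:56931941-56932060 (plus strand, -201 to -82), and beside its element II it holds TGATGNAA on the opposite strand, the core of the composite site bound by ATF4. This core was in 1 of the 37 members (2.70%) and in 1217 of all genes (4.46%). The estrogen response element (GGTCA, then 3 bases of any kind, then TGACC) was in 0 of the 37 members and in 20 of all genes (0.0732%), in these windows of 300 bases only.

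With estradiol, the 17 listed folding genes made up a larger part of the transcripts and the 6 listed degradation genes did not. This holds for the listed genes and was not shared by the other folding enzymes described below. Levels below are in CPM, taken over all UMIs of the same rows and cells. Of the 39 members, 38 had at least 50 UMIs over both libraries and are called measured. Of these, 30 stood above a ratio of 1, where 45.6% of the 10977 measured genes stood above 1. The ratio was at least 1.5-fold higher with estradiol for 6 members, HSPA5, HSP90B1, CALR, HYOU1, SDF2L1 and PDIA3, against 3.82% of all measured genes. It was at least 1.5-fold lower for 1 member, DDIT3, against 6.67% of all measured genes. The median log2 ratio over the measured members was 0.26, and over all measured genes -0.03. Intervals are exact 95% intervals on the counts. They treat each UMI as an independent molecule and cover counting error only, not variation between cultures. How many of all measured genes have intervals wholly above or below a ratio of 1 was not counted. Counts of such intervals among the members therefore have no background, and genes with many UMIs reach them more easily.

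**Figure D1:**
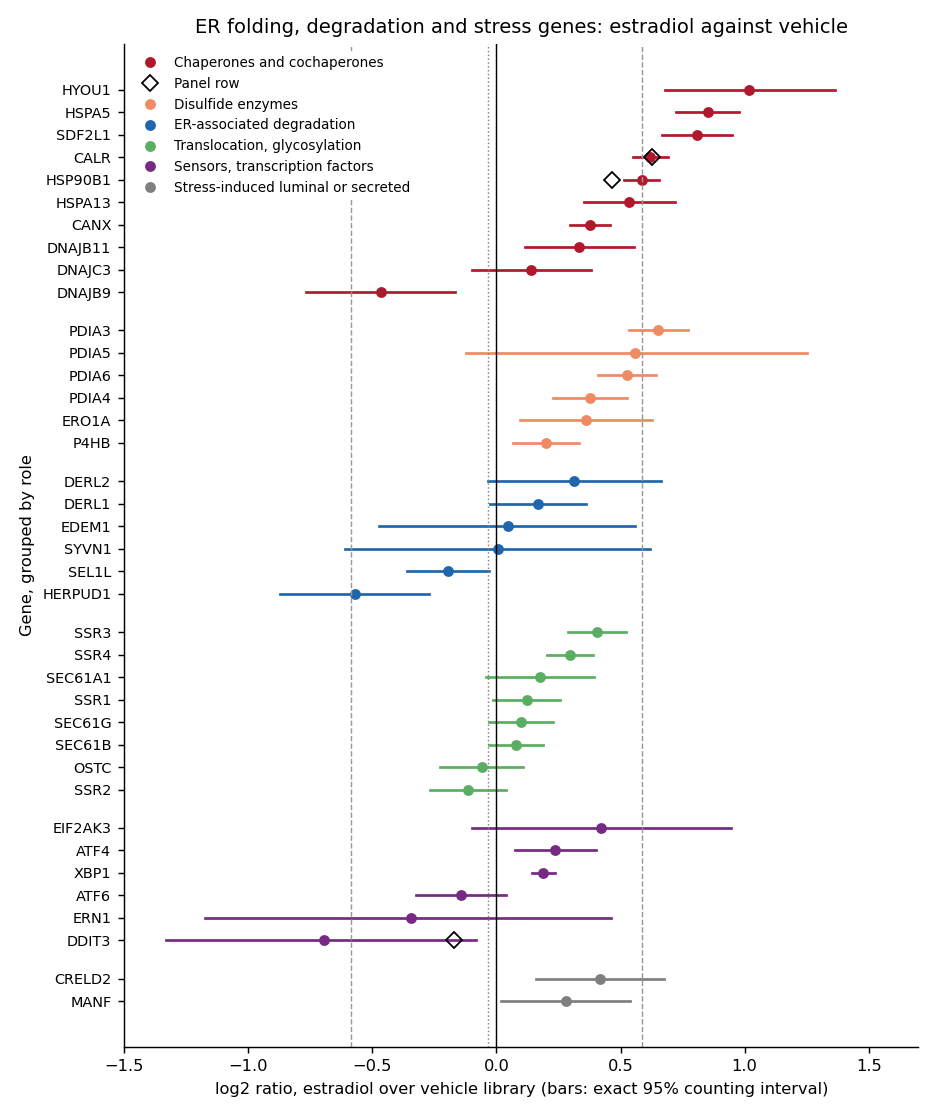
The log2 ratio of each measured gene, estradiol over vehicle, in the all-gene rows (filled points, coloured by role) with the exact 95% counting interval as a bar, and in the panel rows (open diamonds). Dashed lines mark a 1.5-fold difference and the dotted line the median of all measured genes (-0.03). The folding genes lie to the right except DNAJB9 (-0.46), and the degradation genes lie around 0 with HERPUD1 to the left (-0.57).

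Among the chaperones, HSPA5 encodes BiP, the main HSP70 chaperone of the ER lumen, which also holds the stress sensors inactive. Its level was 121 CPM (838 UMIs) with vehicle and 218 CPM (1297 UMIs) with estradiol, a log2 ratio of 0.85 (95% interval 0.72 to 0.98). Because estradiol cells also held more UMIs in all, the mean per cell differed more, 0.170 against 0.385 UMIs. HYOU1, a large HSP70-like exchange factor for BiP, was at 16.6 CPM with vehicle and 33.7 with estradiol, a 2.03-fold ratio (log2 1.02, interval 0.68 to 1.36) from 115 and 200 UMIs. SDF2L1, which works with the BiP cochaperone DNAJB11, was at 99.4 and 174 CPM, a 1.75-fold ratio (log2 0.81, interval 0.67 to 0.95). These 3 genes had the highest ratios of the measured members, and their intervals lay wholly above 1.5-fold.

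HSP90B1 encodes GRP94, the HSP90 of the ER. It read 426 CPM with vehicle and 639 with estradiol, a log2 ratio of 0.59 (0.52 to 0.66), which places it just inside the 1.5-fold line. PDIA5 (0.56) and HSPA13 (0.54) lay just outside it. CALR, the soluble lectin chaperone calreticulin, read 415 and 637 CPM, 1.54-fold (1.46 to 1.61). Its membrane-bound partner CANX read 346 and 448 CPM (log2 0.38, interval 0.30 to 0.46). The calls for HSP90B1 and CALR depend on how cells are weighted: with each of the authors' clusters given equal weight their log2 ratios were 0.56 and 0.49, and that of SDF2L1 was 0.57, all under the line. Equal weight for the phases put CALR at 0.53, and a total without the 10 most abundant genes put HSP90B1 at 0.57.

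The J-domain cochaperones, which steer HSP70 chaperones to their substrates, did not share 1 direction. DNAJB11, the cochaperone of BiP in folding, had a log2 ratio of 0.33 (0.11 to 0.55). DNAJC3, known as an inhibitor of PERK, was at 0.14 with an interval that spans 0 (-0.10 to 0.38). DNAJB9 was the exception among the folding genes. It is a cochaperone that represses IRE1 and takes part in degradation, and it read 35.6 CPM with vehicle and 25.8 with estradiol, a log2 ratio of -0.46 (-0.77 to -0.17). With equal weight for each cluster its value was -0.14. HSPA13, a microsomal HSP70, read 65.2 and 94.5 CPM (0.54, interval 0.35 to 0.72).

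All 6 measured disulfide enzymes stood above 1, and 5 had intervals wholly above it. PDIA3, the isomerase that works with calnexin and calreticulin, read 146 CPM with vehicle and 229 with estradiol, 1.57-fold (1.45 to 1.71). PDIA6, which also dampens IRE1 and PERK, read 160 and 230 CPM (log2 0.53, interval 0.41 to 0.64). P4HB, the classical protein disulfide isomerase, differed least, at 134 and 154 CPM (0.20, interval 0.07 to 0.33). PDIA4 was at 0.38 (0.23 to 0.52). ERO1A, the oxidase that recharges the isomerases, was at 0.36 (0.09 to 0.63). PDIA5 had 34 and 43 UMIs, and its interval (-0.12 to 1.25) does not settle a direction. TXNDC5 had 14 and 22 UMIs and was not measured.

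The secreted and luminal stress proteins MANF and CRELD2, which are known targets of the ER stress response, were both higher. MANF read 35.0 CPM with vehicle and 42.4 with estradiol, a log2 ratio of 0.28 (0.02 to 0.54). CRELD2 read 33.8 and 45.1 CPM, 0.42 (0.16 to 0.68), but its value was 0.09 with equal weight for each cluster.

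The degradation genes did not follow the chaperones. HERPUD1, a scaffold of the retrotranslocation complex and a classical stress target, read 37.0 CPM (256 UMIs) with vehicle and 24.9 CPM (148 UMIs) with estradiol, a log2 ratio of -0.57 (-0.87 to -0.27). SEL1L, the adaptor of the HRD1 ubiquitin ligase, read 102 and 89.1 CPM (-0.19, interval -0.36 to -0.03), and was at -0.05 with equal weight for each cluster. DERL1, a channel component of retrotranslocation, read 64.5 and 72.4 CPM (0.17, interval -0.03 to 0.36). DERL2 was at 0.31 (-0.03 to 0.66). SYVN1, the HRD1 ligase itself, had 51 UMIs with vehicle and 44 with estradiol and was at 0.01 (-0.61 to 0.62). EDEM1, a lectin that passes glycoproteins to degradation, had 70 and 62 UMIs and was at 0.05 (-0.47 to 0.56). Neither interval settles a direction. Of the 6 genes 0 had an interval above 1 and 2 had one below it.

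Set side by side, 15 of 16 measured folding genes of the list stood above 1, where 45.6% of all measured genes did. The lists were chosen with earlier results of these data known, so the contrast between them is a description only. Of the 16, 13 had intervals above 1 and 1, DNAJB9, had an interval below it, counts without a background over all genes. The median log2 ratio was 0.53 for the folding genes and 0.03 for the degradation genes, a difference of 0.50. The degradation median lies between SYVN1 (0.01, interval -0.61 to 0.62) and EDEM1 (0.05, interval -0.47 to 0.56). These had the fewest UMIs of that list, so its median is poorly fixed. Summed over the list, the folding genes made up 2197 CPM with vehicle and 3177 with estradiol (log2 0.53, interval 0.50 to 0.56). The degradation genes made up 241 and 229 CPM (-0.07, interval -0.18 to 0.03). The difference of the medians was 0.28 when each phase had equal weight. Cells of the estradiol library were deeper; with cells of under 800 UMIs left out of both libraries, the median of the folding genes was 0.50 and that of the degradation genes 0.05.

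The translocation genes, which bring new chains into the ER, differed little between the libraries. SSR3 and SSR4, subunits of the translocon-associated protein complex, were the 2 of 8 with intervals above 1. SSR3 read 161 CPM with vehicle and 213 with estradiol (log2 0.41, interval 0.29 to 0.52), and SSR4 read 276 and 338 (0.30, interval 0.21 to 0.39). Their partners SSR1 (0.12) and SSR2 (-0.11) had intervals that span 0. The channel subunits SEC61A1 (0.18), SEC61B (208 and 220 CPM, log2 0.08) and SEC61G (0.10), and OSTC (-0.06), a subunit of the glycosylating enzyme, also had intervals that span 0. The list median was 0.11.

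Of the 3 sensors, ERN1 and EIF2AK3 were read from few molecules. ERN1 had 34 and 23 UMIs (log2 -0.34) and EIF2AK3 was at 0.42 (-0.10 to 0.95), so neither has a direction at this depth. ATF6, with 1006 UMIs over both libraries, read 81.8 CPM with vehicle and 74.1 with estradiol. Its log2 ratio was -0.14, with an interval that also spans 0 (-0.33 to 0.04). XBP1 had 14719 UMIs over both libraries, more than any other member. It read 1075 CPM with vehicle and 1226 with estradiol, a log2 ratio of 0.19 (0.14 to 0.24). UMI totals do not separate the spliced, active form of its mRNA from the unspliced form. ATF4, which is controlled largely at translation, read 89.2 and 105 CPM (0.24, interval 0.07 to 0.40). DDIT3 read 9.54 CPM (66 UMIs) with vehicle and 5.89 CPM (35 UMIs) with estradiol, a log2 ratio of -0.69 (-1.33 to -0.08). In cells with at least 800 UMIs it was at -0.57, under the 1.5-fold line.

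The panel rows read 3 members at much greater depth in the same cells, so they are a second reading of the same RNA and not a second experiment. CALR was at 5076 CPM of the panel with vehicle and 7836 with estradiol, 1.54-fold (1.53 to 1.56), the same as in the all-gene rows. HSP90B1 was at 4434 and 6119 CPM of the panel, 1.38-fold (1.36 to 1.40), lower than in the all-gene rows. DDIT3 was at 106 CPM of the panel (1496 UMIs) with vehicle and 94.3 (976 UMIs) with estradiol, a log2 ratio of -0.17 (-0.29 to -0.06). CALR was thus the 1 member of 3 at least 1.5-fold higher (3.3% of 940 measured panel genes were), and DDIT3 did not pass 1.5-fold lower (11.8% did). The median log2 ratio of all measured panel genes was -0.11. Scaled so that this median is 0, CALR was at 0.74, HSP90B1 at 0.58 and DDIT3 at -0.06.

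The other genes of the same pathways, 95 in all, had list medians between -0.18 and 0.08, where the median of all genes was -0.03. Of 20 other folding enzymes, 19 were measured, 8 stood above 1, and the median log2 ratio was -0.13. GANAB, the glucosidase subunit that trims glycans for the calnexin cycle, was at least 1.5-fold higher (68.2 and 111 CPM, log2 0.70). SIL1, an exchange factor for BiP (-0.52), the sulfhydryl oxidase QSOX1 (-0.51) and the ERO1A paralog ERO1B (-0.48) were lower. Of 22 other degradation genes, 21 were measured, 9 stood above 1 and the median was -0.07. The contrast between the listed folding and degradation genes was thus not seen between these other genes. Among them UFD1 and AUP1 were at 0.36 each and the segregase VCP at 0.25.

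Of 26 other translocation and glycosylation genes, all measured, 16 stood above 1 (median 0.05). The signal peptidase subunit SPCS3 was at least 1.5-fold higher (60.4 and 98.0 CPM, log2 0.70), the oligosaccharyltransferase subunit RPN1 was at 0.53, SEC11A at -0.33 and SRPRB at 0.31. Of 20 targets of the ATF4 branch, 14 were measured and 8 stood above 1 (median 0.08). DDIT4, an inhibitor of mTOR signalling, was at -1.57 (8.53 and 2.86 CPM) and the transcription factor ATF3 at -1.32 (18.1 and 7.24 CPM), while SHMT2 and ATF5 were at 0.49 and 0.46. Of 7 genes that process or resemble ATF6, 2 stood above 1 (median -0.18). CREB3L1 (-0.78) and CREB3L4 (-0.64), membrane-bound relatives of ATF6, were at least 1.5-fold lower, CREB3L1 from 51 UMIs with an interval that spans 0, and the proteases MBTPS1 and MBTPS2 were at -0.28 and -0.18. In the panel rows DDIT4 was at -1.10, CREB3L4 at -0.73, CEBPB at -0.02 and NUPR1 at 0.28, and CREB3L1 read 65.5 CPM of the panel with vehicle and 32.6 with estradiol.

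Listed genes with an ER stress element of either kind mostly stood higher, and other genes with the same letters had a median near 0. The list was chosen with earlier results of these data known, so this contrast between listed and other genes is a description only. Of the 10 members with an element, 9 stood above 1, 5 were at least 1.5-fold higher (3.82% of all measured genes were) and the median log2 ratio was 0.56. HERPUD1, at -0.57, was the exception. The same letters stood in the window of 34 other genes, 17 of them measured. Of these, 11 stood above 1, 0 were at least 1.5-fold higher and the median was 0.04, with a range from -0.48 for ERO1B to 0.45 for NAV2. FICD, which modifies BiP (0.00), and SERP1, a translocon-associated stress protein (-0.06), were among them. The 26 measured members with a window and neither element had a median of 0.16, with 0 called higher and 1 lower. PDIA3, also called higher, has no window and so stands in neither set of members. A match is a description of the letters and does not show that the site is bound.

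**Figure D2:**
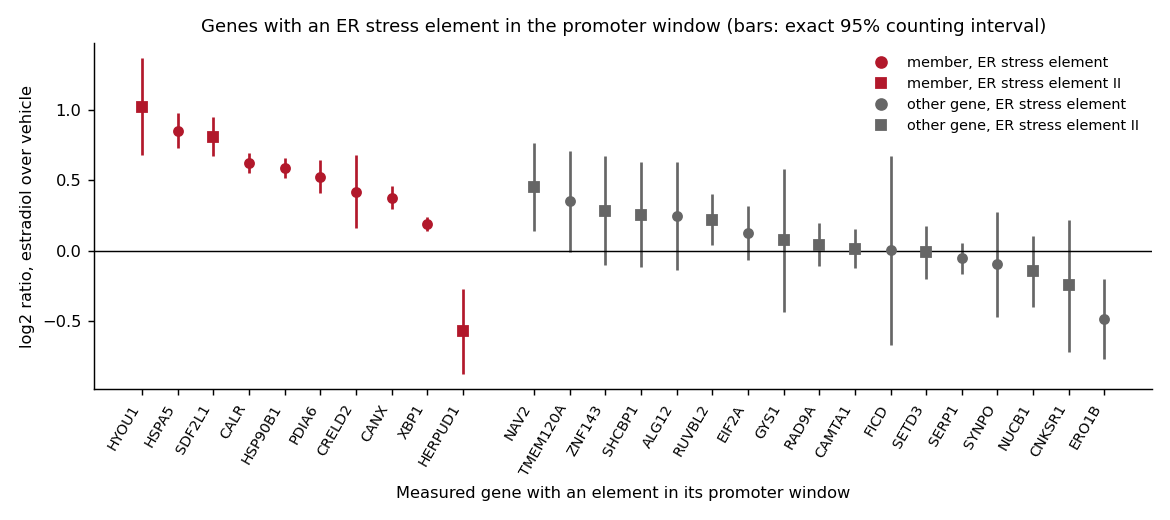
The log2 ratio, estradiol over vehicle, of each measured gene with an ER stress element (circles) or element II (squares) in its promoter window, with exact 95% counting intervals. The 10 listed genes (red) run from 1.02 for HYOU1 to -0.57 for HERPUD1, and the 17 other genes (grey) from 0.45 to -0.48.

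Since the libraries differed in their share of S cells, each comparison was repeated within the authors' cell-cycle phases. The folding genes stood higher with estradiol in each phase, taken as a list. Their median log2 ratio was 0.59 in G1, 0.39 in S and 0.37 in G2M, and their summed level differed by a log2 of 0.58, 0.48 and 0.46. Past 1.5-fold in G1 were 9 higher of the 33 members measured there (background 6%) and 1 lower, DNAJB9 at -0.59 (7.53%). In S these were 6 and 0 of 32 (4.72% and 5.32%), and in G2M 3 and 1 of 34 (3.84% and 6.77%). The 1 lower member in G2M was HERPUD1 at -0.87. The median of the degradation genes was 0.05, -0.12 and -0.10 in the 3 phases, from 5, 4 and 5 measured genes.

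HSPA5 had log2 ratios of 0.93 in G1, 0.83 in S and 0.67 in G2M. HYOU1 was at 1.02, 1.43 and 0.85, the value in S from 14 vehicle and 59 estradiol UMIs (interval 0.57 to 2.38). The ratios of both genes were past 1.5-fold in all 3 phases. The intervals of HYOU1 in each phase, and of HSPA5 in G2M (0.46 to 0.88), reached under that line. SDF2L1 was at 1.03, 0.63 and 0.56, so it passed the line in G1 and S. CALR was at 0.62, 0.39 and 0.62, and HSP90B1 at 0.61, 0.78 and 0.49. PDIA3, at 0.67, 0.71 and 0.55, was close to its value over all cells in each phase. In the panel rows CALR was at 0.66, 0.46 and 0.56, and HSP90B1 at 0.58, 0.56 and 0.33. HSP90B1 thus had its lowest ratio in G2M in both kinds of row. DDIT3, not measured within phases in the all-gene rows, was at -0.21, -0.13 and -0.20 in the panel rows.

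**Figure D3:**
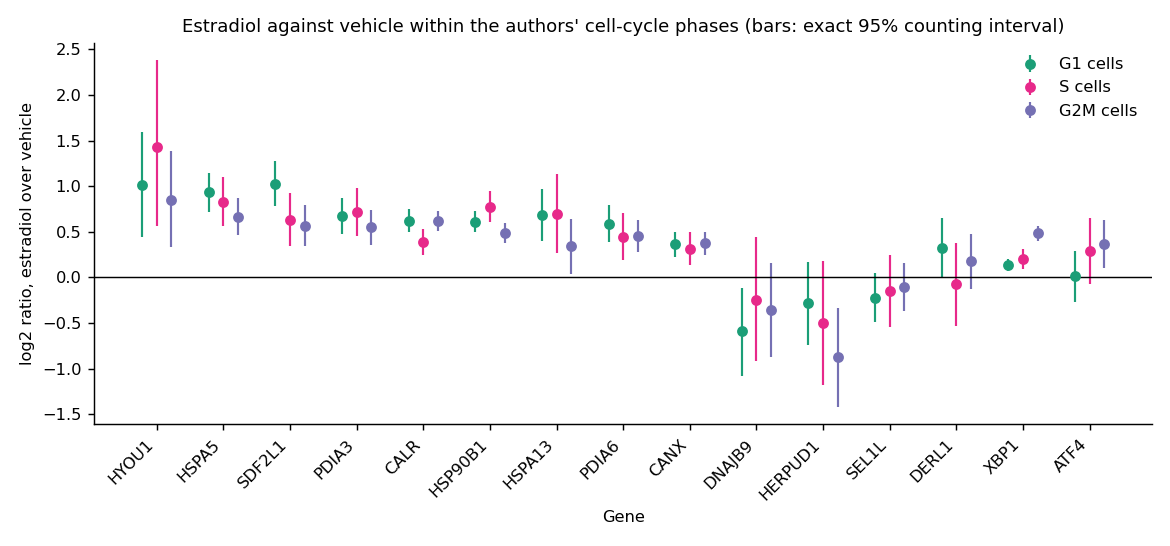
The log2 ratio, estradiol over vehicle, of 15 genes within G1, S and G2M cells, with exact 95% counting intervals as bars. The 9 folding genes from HYOU1 to CANX lie above 0 in each phase, DNAJB9, HERPUD1 and SEL1L lie below 0, and XBP1 is highest in G2M (0.48).

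XBP1 followed another order. Within each library its level was lower in S than in G1 and lower again in G2M, and its ratio was largest where its level was lowest. With vehicle it read 1438 CPM in G1, 999 in S and 723 in G2M cells, a log2 difference of G2M from G1 of -0.99 (-1.07 to -0.92). With estradiol it read 1579, 1148 and 1009 CPM, and the same difference was -0.65 (-0.72 to -0.57). The ratio between the libraries was therefore 0.14 (0.07 to 0.20) in G1, 0.20 (0.09 to 0.31) in S and 0.48 (0.40 to 0.57) in G2M. The G2M interval does not overlap the others. Against G1 in the vehicle library, XBP1 was the 1 member of 36 at least 1.5-fold lower in G2M (background 6.49%), and 0 were higher (9.55%). In the estradiol library XBP1 and HERPUD1 (-0.90) were the 2 of 34 lower in G2M (6.32%), and 0 were higher (8.49%).

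Between S and G1 cells of the same library, the median log2 difference over the 32 measured members was 0.05 with vehicle and 0.04 with estradiol, and over all measured genes -0.03 and -0.01. In the vehicle library 4 of 32 members were at least 1.5-fold higher in S, CRELD2 (0.94), ERO1A (0.73), SDF2L1 (0.72) and DERL2 (0.66, interval -0.06 to 1.36, which spans 0), a count near the background of 9.88%, and 0 were lower (8.28%). In the estradiol library DERL2 (0.96) was the 1 of 32 higher (8.88%), and 0 were lower (5.3%). Neither count sets the members apart from all genes. CALR was at 0.56 (0.42 to 0.71) with vehicle and at 0.33 (0.21 to 0.45) with estradiol. HSPA5 was at 0.37 and 0.26 in S against G1, and the panel rows gave 0.56 and 0.35 for CALR. The median of the folding genes in S against G1 was 0.30 with vehicle and 0.14 with estradiol. The translocation genes summed to 1236 CPM in G1 and 1130 in S with vehicle (log2 -0.13, interval -0.23 to -0.04) and to 1413 and 1322 with estradiol (-0.10, interval -0.18 to -0.01).

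**Figure D4:**
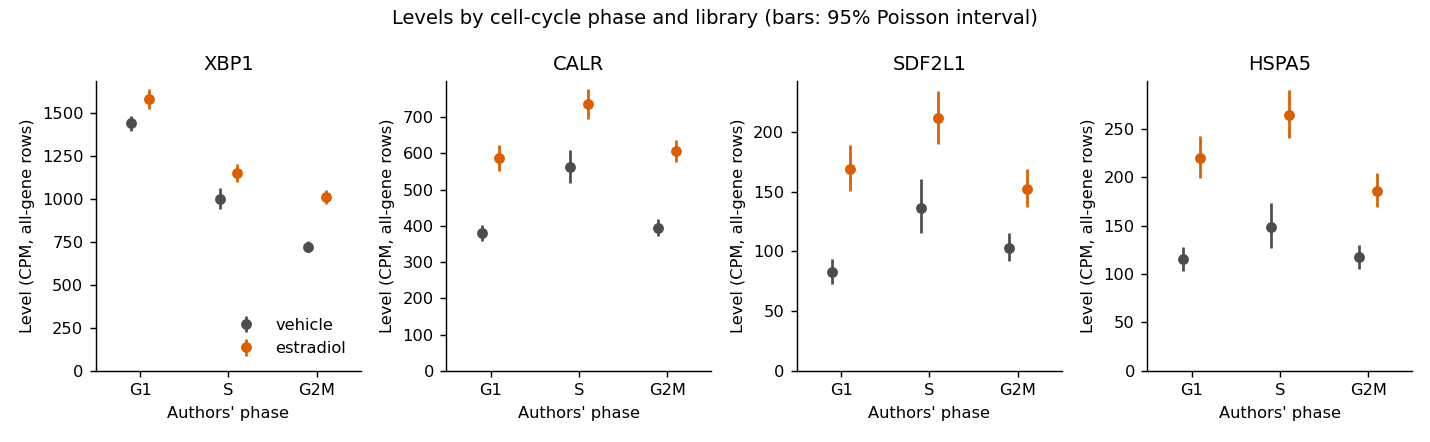
Levels in CPM of the all-gene rows of XBP1, CALR, SDF2L1 and HSPA5 by phase, with vehicle (grey) and estradiol (orange) and 95% Poisson intervals as bars. XBP1 is lowest in G2M in both libraries, and the other 3 genes are highest in S.

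The authors sorted the cells into 8 clusters, which they made from these same cells, so levels by cluster are a description. Summed over the 17 folding genes, the level ran from 1859 to 2477 CPM over the clusters with vehicle and from 2918 to 3500 with estradiol, without overlap. The 6 degradation genes summed to 196 to 290 CPM with vehicle and 192 to 365 with estradiol, with overlap. Of the 19 members measured in all 8 clusters, 8 were higher with estradiol in each cluster (HSPA5, HSP90B1, CANX, CALR, PDIA3, SSR1, SSR3, SSR4), where 9.62% of 1995 genes were. Lower in each cluster were 0 of the 19 (7.92% of genes were). These counts go by sign alone: the log2 ratio of SSR1 ran from 0.005 to 0.30, and in 0 of 8 clusters was its interval above 1.

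For 3 of the 19 the lowest estradiol cluster lay above the highest vehicle cluster, where 1.1% of genes did so. HSPA5 ran from 99.1 to 147 CPM with vehicle and from 160 to 272 with estradiol. PDIA3 ran from 115 to 171 and from 180 to 321, and SSR3 from 141 to 175 and from 176 to 231. For HSPA5 and SSR3 the lowest estradiol value was that of cluster 2, with 82 estradiol cells and a median of 728.5 UMIs per cell. For PDIA3 it was that of cluster 7, with 173 estradiol cells. These low ends rest on few UMIs, and all 3 gaps are within counting error. The gaps were 147 against 160 CPM for HSPA5, 171 against 180 for PDIA3 and 174.9 against 176.5 for SSR3. For CALR (343 to 571 with vehicle, 449 to 714 with estradiol) and HSP90B1 (356 to 640, and 561 to 910) the ranges overlapped. In the panel rows the log2 ratio within a cluster lay between 0.40 and 0.67 for CALR and between 0.25 and 0.68 for HSP90B1. DDIT3 did not keep 1 direction there, from -0.95 in cluster 6 to 0.88 in cluster 2. HERPUD1 read lower with estradiol in 8 of 8 clusters by sign alone. It had enough UMIs to be measured in 3, and in 0 of these was its interval below 1. The background of 7.92% covers only genes measured in all 8 clusters, so it does not apply to HERPUD1. XBP1 varied more between clusters than between the libraries, from 627 CPM in cluster 4 to 1774 in cluster 5 with vehicle. Cluster 4 holds G2M cells alone, and in cluster 5 97.0% of vehicle cells were in G1. HSPA5 was higher with estradiol in both, at 124 and 187 CPM in cluster 4 and at 116 and 238 in cluster 5. Clusters 2 and 6 held only 82 and 79 estradiol cells.

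**Figure D5:**
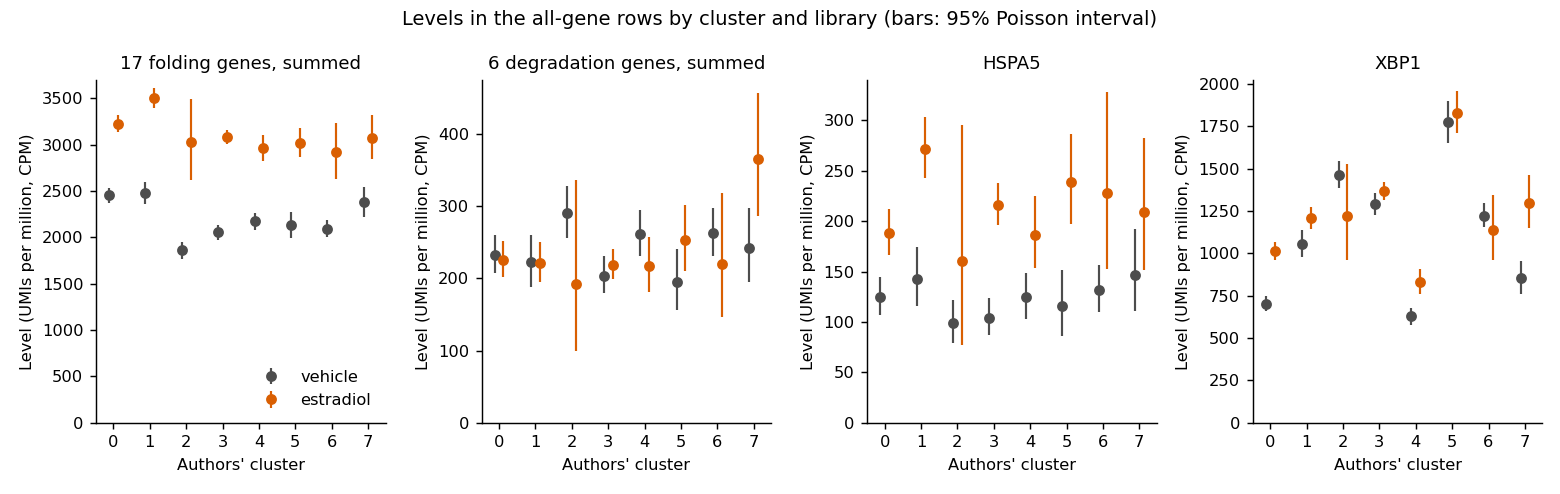
Levels in CPM of the all-gene rows by the authors' cluster, with vehicle (grey) and estradiol (orange) and 95% Poisson intervals as bars: the 17 folding genes summed, the 6 degradation genes summed, HSPA5 and XBP1. The estradiol points of the folding sum lie above all vehicle points (2918 CPM and more against 2477 and less), and the degradation sums overlap.

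The share of cells that held a transcript was read from the same UMIs as the ratios. It is another view of them and no second measurement. To compare cells of unequal depth, each was thinned to 800 UMIs, which left out 951 of the 4940 vehicle cells and 139 of the 3367 estradiol cells. After thinning, 9.33% of vehicle cells (8.44% to 10.3%) and 16.0% of estradiol cells (14.7% to 17.3%) held a UMI of HSPA5. Before thinning the shares were 14.7% and 29.4%. The thinned shares were 28.7% and 39.5% for HSP90B1, 27.6% and 39.0% for CALR, and 11.9% and 17.2% for PDIA3. SDF2L1 was found in 7.80% and 12.7% of thinned cells, and HYOU1 in 1.18% and 2.57%. For XBP1 they were 52.6% and 59.8%. HERPUD1 was found in 2.98% of vehicle cells (2.48% to 3.56%) and 2.60% of estradiol cells (2.08% to 3.21%), intervals that overlap, as they do for DNAJB9 (2.76% and 2.17%). The series holds 1 cell type, so a background share in cells that lack these genes was not measured.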

How the data were processed

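Per the labels, mRNA of single cells was read in 1 library per treatment, with a targeted pan-cancer panel. The submitters' processing notes name the build hg38 and the tools UMI-tools 0.5.3, SAMtools, Bowtie2 2.3.2, cutadapt 1.8.3 and Cell Ranger 3.0.2. The sources used here do not say how the all-gene rows were sequenced. The deposited matrix holds natural log values of counts scaled to 10000 per cell, and the authors' cell table gives UMI count totals, mitochondrial percent, phase and cluster. UMIs were recovered from the log values: 100% came out whole within 1e-06, and every cell summed to its deposited total. The 549 repair rows and 12 annotation columns were not used.

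UMIs were summed per library, phase or cluster and divided by the total of the same rows and cells. Levels have exact Poisson intervals, and ratios and shares have exact Clopper-Pearson intervals (95%). A gene was measured from 50 UMIs over both sides. No test was possible with 1 library per treatment, and cells were not taken as replicates. All deposited cells were used, and no doublet caller was run. Values were printed for every member at least 1.5-fold apart, for the 3 members of each role with most UMIs and for members with a panel row, and up to 4 genes of each further list were named by size of ratio; 1 gene this rule names is not reported here. The members and lists were chosen with earlier results of these data known. Motifs were searched as plain letters in the RefSeq windows. The scripts, tested on simulated data, used Python 3.11.15, NumPy 2.4.6, SciPy 1.17.1, pandas 2.3.3 and Matplotlib 3.10.9. Other scalings, cell filters, count minimums and equal weights for cells, phases or clusters were tried.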

Additional observations from a re-analysis of the deposited data

How the results depend on the processing

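No paired analysis was possible because there was 1 library per treatment. The median log2 ratio of the folding genes stayed between 0.45 and 0.57 under 11 alternatives, that of the degradation genes between -0.05 and 0.18 under 10, and their difference between 0.28 and 0.54 under 11. The number of members at least 1.5-fold higher ran from 4, with equal weight for each cluster, to 8, with equal weight for each cell. The number at least 1.5-fold lower was 1 in the main analysis, 0 in cells with at least 800 UMIs, 0 among members with at least 200 UMIs, and 2 with equal weight for each cluster, where HERPUD1 (-0.75) joined DDIT3. HSPA5, HYOU1 and PDIA3 were past 1.5-fold higher in 7 of 7 alternatives that rescale or reweight the counts, SDF2L1 in 6, CALR and HSP90B1 in 5. The signs of EDEM1, OSTC and SYVN1 were not the same in all 7. The cause was not tested. At this depth ERN1, EIF2AK3, PDIA5, SYVN1 and EDEM1 have intervals that span 0, and TXNDC5 was not measured.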
